A study of Mus musculus with 15 samples.

Results

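The cell cycle and mitosis genes of the mouse ovary were followed in *Foxl2*-null, heterozygous and wild-type animals at 2 ages. Members were chosen by gene symbol alone, from the name families of the A, B, D and E cyclins, the cyclin-dependent kinases (CDKs) and their inhibitors, the Cdc, Mcm, Orc and E2f genes, the Aurora, Bub and Polo-like kinases, the centromere proteins and the kinesins. The rule took 122 of the 12254 genes that could be named on the arrays, read by 163 probes. For the 37 genes with more than 1 probe, the probe with the brightest mean ovary signal was used. By their known roles, 70 members belong to the division cycle itself and are called core members here. The other 52 share a family name but were taken to act mainly elsewhere, such as kinesins that mostly carry cargo along axons and cilia, Cdc42 effectors, CDKs of transcription, and cyclins of the germ line. *Kif2a*, which fell with age in each genotype, was counted with those kinesins and not with the mitotic ones. Of the 122 members, 118 were well above background on all 15 arrays and 4 on some of them, and no member was saturated.

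Cell division is driven by CDKs, which are active only when bound to a cyclin and are held back by CDK inhibitors. D cyclins and E2F factors commit a cell to S phase, the Cdc6, Cdc45, Mcm and Orc proteins mark and fire the origins of DNA replication, and A and B cyclins then carry the cell into mitosis. There, Bub proteins delay the separation of chromosomes until centromeres are attached, and Cdc20 lets it proceed. In the ovary around birth, oocytes rest in meiosis while the somatic granulosa cells around them begin to multiply as follicles start to grow.

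RNA came from whole ovaries of mice that carried 2, 1 or no functional *Foxl2* alleles, labelled *Foxl2* +/+, +/- and -/-. Their background was mixed from 2 strains by the methods, of which the labels give only NIHS-BC. *Foxl2* encodes a forkhead factor of granulosa cells. Each newborn group had 3 arrays and each 7 dpn (days postnatum) group had 2, and on every array the ovary RNA was set against the same universal reference, a pool of mouse cell line RNA. A level below is the log2 ratio of ovary over reference for a probe, and levels are not compared between genes. A difference is that of 2 group means of such ratios. By the methods each 7 dpn sample was a pool of several mice, so the spread there is between pools, while newborn samples came from individual mice. All values describe whole organs, in which fewer cells of a type and less RNA per cell cannot be told apart.

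Newborn wild-type replicate 1 stood apart: its log2 ratios correlated across probes with the other newborn wild-type arrays at r = 0.908 and 0.889, against 0.956 between those. It also had the highest mean level of 11 granulosa cell markers among the newborn arrays, 1.57 against 0.92 and 1.05 in its own group. Where the count of members called in a comparison changes without this array, both counts are given. All newborn arrays were read by the scanner software on one day and all 7 dpn arrays on the next, so age and that day cannot be told apart. The *Foxl2* probe did not separate the genotypes, with group means from -0.31 to -0.24 in all 6 groups, so it checks no label. The markers of the tissue were present: 14 oocyte markers averaged from 2.78 to 3.09 and the granulosa cell markers from 0.53 to 2.15 over the 6 groups.

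Promoters are shown here for genes whose levels the comparisons below turn on, since division genes are known to share short promoter elements. The 250 bases before the RefSeq start are given 5′ to 3′ on the gene's strand (GRCm38.p6), for *Ccnb2* at chr9:70421555-70421804 (minus), *Cdc20* at chr4:118437344-118437593 (minus), *Cdc45* at chr16:18811973-18812222 (minus), *Cdc6* at chr11:98907901-98908150 (plus) and *Mcm3* at chr1:20820313-20820562 (minus). Capitals mark an E2F motif, the CHR (cell cycle homology region) element TTTGAA or a CCAAT box, on either strand.
*Ccnb2*: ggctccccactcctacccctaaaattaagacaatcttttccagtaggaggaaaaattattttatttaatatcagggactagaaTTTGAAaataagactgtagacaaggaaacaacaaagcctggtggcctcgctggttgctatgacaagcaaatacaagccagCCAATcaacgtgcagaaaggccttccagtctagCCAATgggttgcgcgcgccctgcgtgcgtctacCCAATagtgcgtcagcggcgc
*Cdc20*: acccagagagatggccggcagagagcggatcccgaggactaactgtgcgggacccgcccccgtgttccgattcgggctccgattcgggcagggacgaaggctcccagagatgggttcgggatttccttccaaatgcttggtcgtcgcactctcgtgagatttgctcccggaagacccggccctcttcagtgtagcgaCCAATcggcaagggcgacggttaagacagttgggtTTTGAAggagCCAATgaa
*Cdc45*: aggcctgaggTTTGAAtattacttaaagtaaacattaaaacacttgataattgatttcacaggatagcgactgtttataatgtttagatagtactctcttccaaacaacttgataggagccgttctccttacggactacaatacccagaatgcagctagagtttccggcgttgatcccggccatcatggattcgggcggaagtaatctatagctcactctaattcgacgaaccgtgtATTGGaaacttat
*Cdc6*: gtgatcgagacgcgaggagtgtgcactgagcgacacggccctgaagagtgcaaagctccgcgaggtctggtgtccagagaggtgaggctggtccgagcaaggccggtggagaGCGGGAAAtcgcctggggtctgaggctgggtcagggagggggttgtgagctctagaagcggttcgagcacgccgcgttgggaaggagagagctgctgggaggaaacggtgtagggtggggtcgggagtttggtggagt
*Mcm3*: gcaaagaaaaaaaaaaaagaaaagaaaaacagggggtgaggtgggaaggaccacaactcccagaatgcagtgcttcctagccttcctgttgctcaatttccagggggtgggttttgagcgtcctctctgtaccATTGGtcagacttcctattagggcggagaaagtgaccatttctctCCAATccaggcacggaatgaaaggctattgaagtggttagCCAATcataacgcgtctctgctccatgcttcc

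The mitotic genes *Ccnb2* and *Cdc20* carried the CHR element and CCAAT boxes in this stretch, 3 boxes in *Ccnb2* and 2 in *Cdc20*. Among the replication genes, *Cdc6* held an E2F motif, while *Mcm3* held CCAAT boxes here and 2 E2F motifs just after its start. *Cdc45* held a CHR element, a CCAAT box (another spans the start) and also the forkhead letters GTAAACA. *Ccnb2* and *Cdc45* each held another CHR element just after the start. Promoters of 300 bases (250 before and 50 after the start) were found for 108 of the 122 members. An E2F motif (TTTCCCGC, TTTCGCGC, TTTGCCGC or TTTGGCGC, both strands, whose letters can share at most 1 base with the other motifs) stood in 18 of them, or 16.7%, against 2.32% of all 27025 genes in the table. The CHR element stood in 17.6% of the members' promoters against 18.1% of all, the CCAAT box in 50.9% against 37.9%, and the forkhead letters in 1.85% against 3.55%. A match of letters is not a site shown to be used.

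The comparison of null with wild-type ovaries at 7 dpn asked how division genes stood a week after birth in ovaries without *Foxl2*. The gene of the CDK inhibitor p21, *Cdkn1a*, was 2.52-fold higher and that of cyclin D1, *Ccnd1*, 1.89-fold higher in null ovaries. The core members that passed and were lower were the origin genes *Cdc6*, *Cdc45* and *Mcm3*, the mitotic phosphatase gene *Cdc25c*, the checkpoint gene *Bub1b*, the centromere gene *Cenpi* and the factor *E2f6*, each by 0.32 to 0.64 on the log2 scale. In all, 15 of 122 members passed the test, 5 higher and 10 lower, where passing (called) means an adjusted p under 0.05 in limma over all probes. That is 12.3% of the members against a background of 8.67% of all named genes, of which 3.94% were called higher and 4.74% lower. Among the core members 2 were higher and 7 lower, and the median difference over all members was -0.02, near the 0.01 of all named genes. The split depends on the values used. With the authors' series values, whose median over all probes was itself shifted by 0.11, 18 members were called higher and 5 lower, against 9.98% and 2.79% of all named genes.

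*Cdkn1a*, which halts the cycle when CDKs must be stopped, had log2 ratios of -1.20 and -0.84 in the 7 dpn null arrays, -1.61 and -1.77 in heterozygous arrays and -2.17 and -2.54 in wild-type arrays. The 3 genotypes did not overlap, and the heterozygous arrays lay between the others. Null exceeded wild-type by 1.33 (SE 0.19, limma adjusted p = 0.00222). A second, dimmer probe of *Cdkn1a* did not show this difference. It read between -0.22 and -0.02 on every array but 7 dpn wild-type replicate 2, where it read 1.54, and with the mean of both probes the gene was no longer called (0.26).

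*Ccnd1* encodes the cyclin that starts CDK4 and CDK6 in early G1. It had ratios of -0.22 and -0.17 in null arrays, -0.92 and -0.96 in heterozygous arrays and -1.36 and -0.86 in wild-type arrays at 7 dpn. Null arrays stood above all others, while the heterozygous arrays lay within the range of the wild-type pair. The difference from wild-type was 0.92 (limma adjusted p = 0.00486), and that from heterozygous was 0.75 (limma adjusted p = 0.025). Its second probe gave 0.41 (limma adjusted p = 0.147). *Cdk4*, a partner of cyclin D1, went the other way but missed the threshold, at -0.37 (limma adjusted p = 0.0535). *Ccne1*, *Cdk2*, *Cdk6*, *Ccnd3* and *Cdc25a* lay between -0.27 and 0.25 and did not pass.

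**Figure D1:**
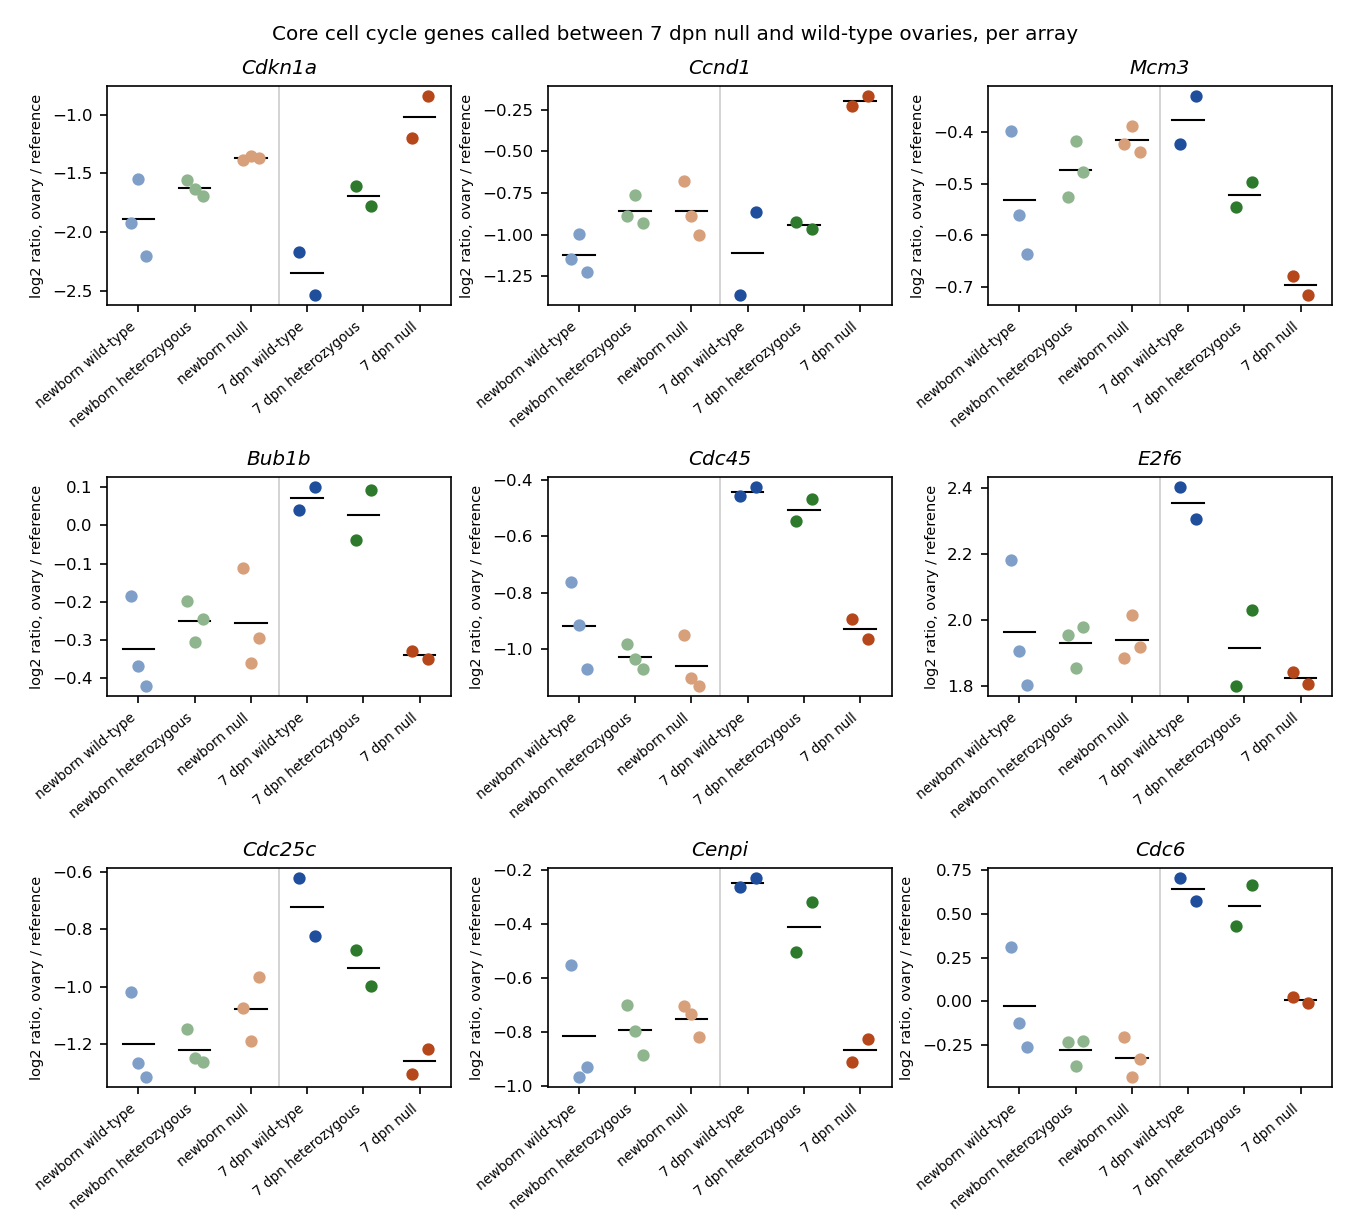
Log2 ratio of ovary over reference (y axis) on each of the 15 arrays for the 9 core members called between null and wild-type ovaries at 7 dpn, by group (x axis); points are arrays and lines are group means. In the 7 dpn groups *Cdkn1a* and *Ccnd1* stand highest in null arrays, and the other 7 genes stand lower in null than in wild-type arrays without overlap.

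Of the origin genes, 13 of 16 had a lower mean in null than in wild-type ovaries at 7 dpn, and 3 passed, with a median of -0.11 over the 16. *Cdc6*, which loads the Mcm helicase onto origins, read 0.02 and -0.01 in null arrays, 0.43 and 0.67 in heterozygous arrays and 0.71 and 0.58 in wild-type arrays. Both null arrays lay below the other 4. Its difference from wild-type was -0.64 (SE 0.16, limma adjusted p = 0.0405). *Cdc45*, the helicase cofactor that fires origins, read -0.89 and -0.96 in null, -0.55 and -0.47 in heterozygous and -0.46 and -0.42 in wild-type arrays, a difference of -0.49 (limma adjusted p = 0.0111). *Mcm3*, a helicase subunit, read -0.68 and -0.72 in null, -0.55 and -0.50 in heterozygous and -0.42 and -0.33 in wild-type arrays, a difference of -0.32 (limma adjusted p = 0.028). For *Cdc45* and *Mcm3*, too, null arrays lay below all the others. The remaining Mcm subunits, *Mcm2* and *Mcm4* to *Mcm7*, lay between -0.26 and -0.12 without passing.

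Among the genes of G2 and mitosis the lowest were *Cdc25c*, *Plk4* and *Ccnb1*. *Cdc25c*, the phosphatase that releases CDK1 for mitosis, read -1.30 and -1.22 in null, -0.87 and -1.0 in heterozygous and -0.62 and -0.82 in wild-type arrays. Null arrays lay below the rest, with a difference from wild-type of -0.54 (SE 0.11, limma adjusted p = 0.0161). A second probe of *Cdc25c* differed by 0.01, and the reference channel of the brighter probe itself differed by -0.30, the part of which in the ratio was not tested. *Plk4*, which starts centriole duplication, differed by -0.51 and *Ccnb1*, a B cyclin, by -0.49, and neither passed (limma adjusted p = 0.063 and 0.42). *Ccna2* and *Ccnb2* both stood at -0.30, while *Cdk1*, their kinase, stood at 0.08 and *Plk1* at 0.09, none of them called. The median of the 8 genes of this group was -0.30.

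At the centromere and spindle, *Cenpi*, *Bub1b* and the factor *E2f6* fell in null against wild-type ovaries at 7 dpn. *Cenpi*, part of the inner centromere complex, read -0.91 and -0.83 in null, -0.50 and -0.32 in heterozygous and -0.26 and -0.23 in wild-type arrays, a difference of -0.62 (limma adjusted p = 0.0143). *Bub1b*, the checkpoint kinase BubR1, read -0.33 and -0.35 in null, -0.04 and 0.09 in heterozygous and 0.04 and 0.10 in wild-type arrays, a difference of -0.41 (limma adjusted p = 0.0273). *E2f6*, a repressor of the E2F family, read 1.84 and 1.81 in null, 1.80 and 2.03 in heterozygous and 2.40 and 2.31 in wild-type arrays, a difference of -0.53 (limma adjusted p = 0.0207). For *E2f6* the heterozygous arrays overlapped the null ones, whereas for *Cenpi* and *Bub1b* they lay above them. No other member of these groups passed, and of 15 centromere genes 9 had a higher mean and 6 a lower one, with a median of 0.06. *Cdc20* (-0.39), *Cenpa* (-0.50), *E2f5* (-0.21) and *E2f1* (-0.11) did not pass.

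Of the other CDK inhibitors, *Cdkn2b* (0.74), *Cdkn2a* (0.70) and *Cdkn1b* (0.43), which encodes p27, had higher means in null ovaries without passing, and *Cdkn2c* stood at -0.09. In all, 6 of the 7 inhibitor genes had a higher mean, with a median of 0.43, and 1 passed. Among the members outside the core 3 were higher and 3 lower. *Cdc42ep3*, a Cdc42 effector, was higher by 0.66 (null 0.20 and 0.22, wild-type -0.22 and -0.67), *Cdk5*, a kinase best known from neurons, by 0.63 and *Cdkn2aipnl* by 0.53. *Plk2*, a stress-responsive Polo kinase, was lower by 0.38 on that scale (null -2.56 and -2.43, wild-type -2.14 and -2.10), *Cdc42se2* differed by -0.32 and the transport kinesin *Kif3c* by -0.27. *Aurkc*, the germ line Aurora kinase, depended on the probe: its brightest probe stood at -0.09, while 3 dimmer probes stood at -0.67, -0.48 and -1.04 and were each called.

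**Figure D2:**
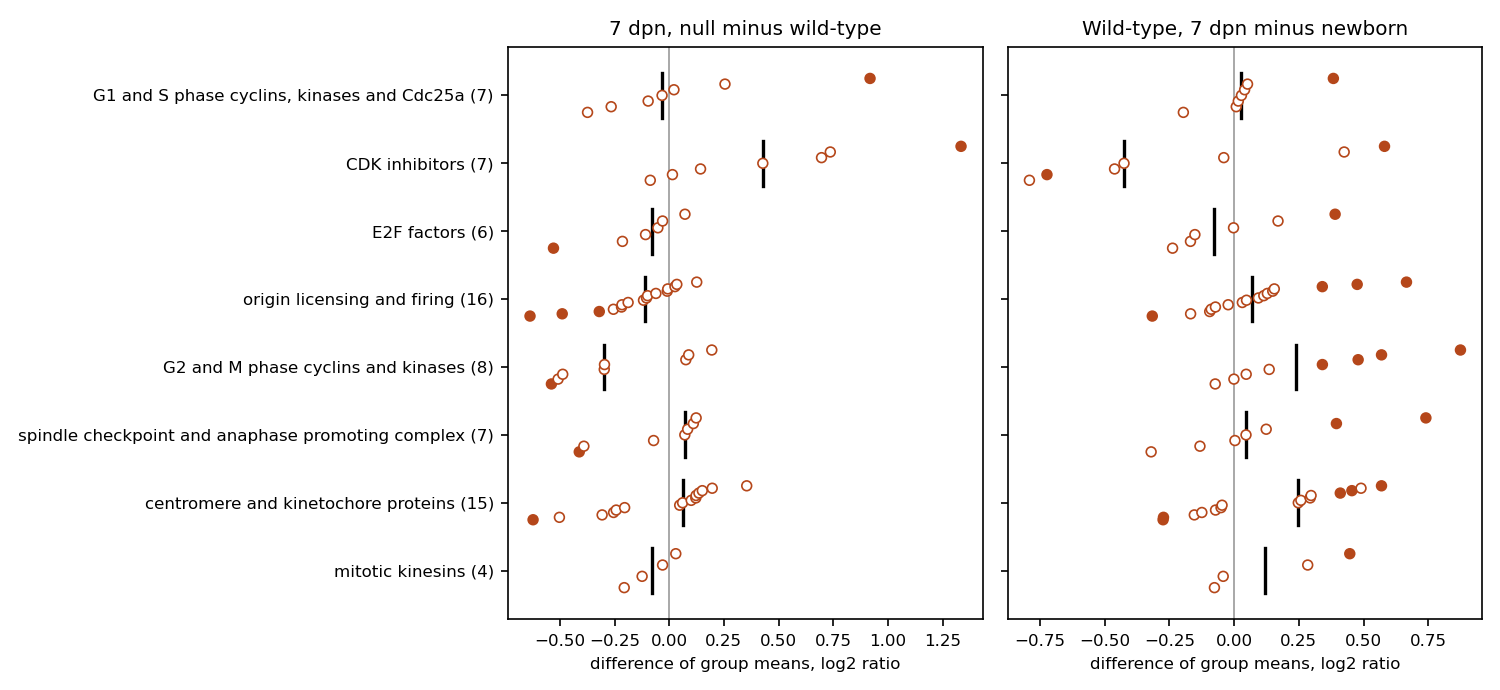
Difference of mean log2 ratios (x axis) for each of the 70 core members by role (y axis), null minus wild-type at 7 dpn on the left and 7 dpn minus newborn in wild-type ovaries on the right; filled points passed the test and bars are role medians. On the left the origin genes lie mostly below 0 and the CDK inhibitors mostly above it, and on the right the called genes of G2 and mitosis are all higher at 7 dpn.

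Genes of the same processes that the name rule does not cover were counted in the same way, and the backgrounds stay at 3.94% called higher and 4.74% called lower. Of 33 other replication genes 4 (12.1%) were lower and none higher: *Dnmt1*, the maintenance methyltransferase (-1.51), *Rrm2*, a subunit of ribonucleotide reductase (-0.74), *Chaf1a* (-0.46) and *Tk1* (-0.40). Of 45 other mitosis genes *Aspm* (-2.39) and *H2az1* (-0.90) were lower, a share of 4.44% near the background, and none was higher. Of 21 genes that control the cycle, the stress-response genes *Gadd45b* (1.73, limma adjusted p = 3.72e-05) and *Gadd45a* (0.65) and the antiproliferative *Btg2* (0.49) were higher. *Myc* (-1.49) and the checkpoint kinase gene *Chek1* (-0.56) were lower, which makes 14.3% higher and 9.52% lower. The median over the 33 replication genes was -0.09 and over the 45 mitosis genes -0.04.

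Cell type markers moved with these genes. The 11 granulosa cell markers, *Fshr* and *Cyp19a1* among them, had mean levels of 0.64 and 0.67 in null, 1.39 and 1.49 in heterozygous and 2.01 and 2.29 in wild-type arrays at 7 dpn, and 8 of the 11 were lower in null than in wild-type ovaries (median -1.64). Of 5 theca markers 3 were lower, *Hsd3b1* (-3.96), *Cyp11a1* (-3.50) and *Cyp17a1* (-0.90), and of 5 endothelial markers *Emcn* was. Of the 14 oocyte markers *Sohlh2* (0.36) was higher and *Bmp15* (-1.66) and *Oosp1* (-2.04) were lower, of 11 meiotic markers none was called, and none of 3 smooth muscle and 3 blood cell markers was. Of 6 testis supporting cell markers *Sox9* was higher (1.67) and *Amh*, also a granulosa marker, lower (-0.83). The part of cell composition in the division gene differences was not tested.

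The count of 15 rested on few arrays. It was 4 when null replicate 1 was left out, 3 when null replicate 2 was and 6 when wild-type replicate 2 was, where 3.76%, 2.85% and 5.09% of all named genes were called. With only the 7 dpn arrays it was 5 (background 4.05%) and with the ovary channel alone 3 (background 3.12%). It was 21 without newborn wild-type replicate 1, which is in neither of the groups compared. In that last fit 10.8% of all named genes were called, and *Ccnb2*, *Cdk4*, *Cenpa*, *Cenpp*, *Kif17* and *Cdk5rap3* passed beside the 15. *Cdkn1a* and *Ccnd1* were called whichever of the 15 arrays was left out.

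Against heterozygous ovaries at 7 dpn, null ovaries differed in 6 members, 4.92% against a background of 3.33% (1.57% higher, 1.76% lower). *Ccnd1* (0.75) and *Cdc42ep3* (0.59) were higher, and *Cdc45* (-0.42), *Cdc42se2* (-0.40), *Plk2* (-0.34) and *Kif3c* (-0.26) were lower, all with the limma adjusted p between 0.00775 and 0.047. For *Plk2* and *Kif3c* the reference channel itself was higher beside null ovaries, by 0.20 and 0.17, more than 0.5 of each ratio's difference. Of the 84 differences called in members, 6 had a reference difference of that size and of opposite sign, the sign by which a reference moves a ratio, the others being *Cenpb* with age in wild-type ovaries and *Cdc42se1*, *Cdk9* and *E2f1* with age in heterozygous ovaries, and its part in them was not tested. The comparison with heterozygous ovaries shares its null arrays with the one above. Of the origin genes 15 of 16 had a lower mean in null ovaries (median -0.18), as did all 7 genes of the spindle checkpoint and anaphase promoting complex (median -0.11), of which 1 and 0 passed. The count was 0 without either null array or without heterozygous replicate 2 and 1 without heterozygous replicate 1, where from 0.891 to 1.68% of all named genes were called. It was also 0 with only the 7 dpn arrays (background 1.4%) or with the ovary channel alone (background 1.05%). It was 11 without newborn wild-type replicate 1 (background 4.78%), where *Cdc6*, *Mcm4*, *Bub1b*, *Cenpi* and *Kif17* passed as well, so that 3 origin genes and 1 checkpoint gene did. It was 2 or 3 without any of the newborn null or heterozygous arrays (backgrounds from 2.68 to 3.19%). Of the lists, 2 of 33 other replication genes were lower, *Dnmt1* (-1.49) and *Chaf1a* (-0.46), 1 of 45 mitosis genes was, *Cdca5* (-0.42), and of 21 control genes *Gadd45b* (0.98) was higher and *Chek1* (-0.59) lower. These are shares of 6.06%, 2.22% and 4.76% in each direction, against backgrounds of 1.57% higher and 1.76% lower. Markers moved here too. Of 11 granulosa cell markers *Hsd17b1* (-2.60), *Esr2* (-0.72) and *Amh* (-0.68) were lower, as were the theca marker *Hsd3b1* (-3.63) and the oocyte markers *Oosp1* (-1.77) and *Bmp15* (-1.65), and *Sox9* was higher (1.29). Their part in the division gene differences was not tested.

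Between heterozygous and wild-type ovaries at 7 dpn, which asks about the dose of *Foxl2*, no member was called in limma where the background was 0.098%. At an unadjusted p under 0.05 there were 15 of 122, against 11.8% of all named genes. *Cdkn1a* stood at 0.66 (limma adjusted p = 0.263), *E2f6* at -0.44 and *Cdk4* at -0.29, while *Cdc6*, *Cdc45* and *Bub1b* stood between -0.09 and -0.04. Without 7 dpn wild-type replicate 1 the count was 1 (background 0.752%). Of the lists and markers *Inhba*, a granulosa cell marker, was called (-2.08), and the mean granulosa marker level was 1.44 in heterozygous and 2.15 in wild-type ovaries. Their part in the result was not tested.

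In newborn ovaries few division genes differed by genotype. Null against wild-type called 2 members, both higher, 1.64% against a background of 2.46% (1.45% higher, 1.01% lower). *Ccnb2*, a B cyclin of mitosis, read 0.19, 0.14 and 0.19 in null, -0.05, -0.01 and -0.07 in heterozygous and 0.03, -0.17 and -0.24 in wild-type arrays. Null arrays stood above all the others, by 0.30 over wild-type (SE 0.07, limma adjusted p = 0.0483), and the second probe of *Ccnb2* gave 0.32 (limma adjusted p = 0.0446). *Cdc42se1* was higher by 0.27 (limma adjusted p = 0.049). *Cdc20* stood at 0.60 on the 2 null arrays that measured it and *Cdkn1a* at 0.52, with limma adjusted p of 0.0704 and 0.159. The heterozygous arrays gave no call in limma against wild-type (background 0.0245%) or against null (background 0.604%). At an unadjusted p under 0.05 these comparisons held 17 and 16 of 122 members, against 12.8% and 11.8% of all named genes.

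The newborn calls turned on a wild-type array. Without newborn wild-type replicate 1, 11 members were called between null and wild-type, against 6.78% of all named genes (3.22% higher, 3.56% lower), and 10 of them were higher in null: *Ccnb2*, *Cdc20* (0.74), *Cdk18* (1.13), *Ccna2* (0.41), *Cenpa* (0.40), *Cenpk*, *Cenps*, *Kif22*, *Aurkc* and *Cdc42se1*. *Plk2* was lower (-0.28). The brightest probe of *Aurkc* stood at 0.23 there, while its 3 dimmer probes stood at -0.30, -0.38 and -0.58, and the second probe of *Kif22* stood at -0.03 against 0.29. *Ccnb2* and *Cdc42se1* were themselves called in 1 of the 15 fits that each left out an array, the one without newborn wild-type replicate 1. On that array *Ccnb1* read 0.44, against -0.17 and -0.64 on the other newborn wild-type arrays, and *Cdc6* read 0.31 against -0.13 and -0.26. Without any of the newborn null arrays, newborn heterozygous replicate 2, newborn wild-type replicate 3 or any of the 7 dpn null and heterozygous arrays the count was 0, and it was 1 without newborn heterozygous replicate 1 or 3 or either 7 dpn wild-type array, where from 0.972 to 2.34% of all named genes were called. Without newborn wild-type replicate 1, 5 members were called between heterozygous and wild-type and 1 between null and heterozygous, against 4.5% and 0.907% of all named genes. Mean granulosa marker levels ran from 0.50 to 0.56 in newborn null, from 0.67 to 0.72 in heterozygous and from 0.92 to 1.57 in wild-type arrays, and 2 of the 11 markers were called lower in null than in wild-type ovaries. Beside them the theca marker *Hsd3b1* was lower (-2.49), and the testis supporting cell marker *Sox9* (0.71) and the control genes *Gadd45b* (0.83) and *Id2* (0.65) were higher. The part of cell composition in these values was not tested.

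The change from birth to 7 dpn in wild-type ovaries gave the most calls of the 11 comparisons. Of the 122 members 34 were called, 25 higher and 9 lower at 7 dpn, 27.9% against a background of 13.2% (8.5% higher, 4.66% lower). With only the arrays of these 2 groups no member and no named gene was called, and with the ovary channel alone 4 members were, against 3.33% of all named genes. The cyclins *Ccnb1* (0.87), *Ccna2* (0.57) and *Ccnb2* (0.34), the mitotic activators *Cdc20* (0.74) and *Cdc25c* (0.48), and the origin genes *Cdc6* (0.67), *Cdc45* (0.48) and *Mcm7* (0.34) rose together. The CDK inhibitor gene *Cdkn1b* fell by 0.72 on the log2 scale while *Cdkn2c*, which encodes the inhibitor p18, rose by 0.58. With the authors' series values, whose median over all probes was shifted by -0.16, 12 members were called higher and 20 lower, against 5.14% and 14.2% of all named genes, so this split, too, depended on the values used.

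*Cdc20*, the activator of the anaphase promoting complex, read -0.89, -1.17 and -1.45 in newborn and -0.50 and -0.35 in 7 dpn wild-type arrays. *Ccna2*, the cyclin of S phase and mitotic entry, read 0.08, -0.31 and -0.48 in newborn and 0.39 and 0.27 in 7 dpn arrays. *Cdkn1b* read 0.92, 1.13 and 1.16 in newborn and 0.38 and 0.31 in 7 dpn arrays. In each of these genes the ages did not overlap. Of the 8 genes of G2 and mitosis 4 were called, all higher, with *Ccnb1* just inside the threshold (limma adjusted p = 0.0495). *Cdk1*, *Plk1*, *Cdc25b* and *Plk4* lay between -0.07 and 0.14.

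Among centromere genes *Cenpi* (0.57), *Cenpo* (0.46) and *Cenps* (0.41) rose, while *Cenpb* and *Cenph* each fell by 0.27 on that scale. *Bub1b* (0.40), *E2f6* (0.39), *Cdk4* (0.38) and the mitotic kinesin *Kif22* (0.45) also rose, though the mean of its probes left *Kif22* at -0.04. The origin recognition gene *Orc2* fell by 0.32. Among other members, *Cdk18* (0.95), *Ccna1*, the germ line A cyclin (0.69), *Cdk2ap2* (0.59), *Aurkc* (0.43) and *Cdc123* (0.43) rose, and *Kif2a* (-0.57) and *Cdkn2aipnl* (-0.46) fell. *Kif17*, listed at 1.5, was well above background on none of the newborn wild-type arrays and on 1 of the 2 at 7 dpn. Of the 15 called members with further probes, 16 of 18 such probes had the same sign and 5 were called.

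Replication and mitosis genes outside the name rule were called in both directions with age in wild-type ovaries, 7 higher (21.2%) and 3 lower (9.09%) of 33 and 8 higher (17.8%) and 5 lower (11.1%) of 45, against the backgrounds of 8.5% and 4.66%. Of 21 control genes 4 rose and 4 fell (19% each): *Myc* (1.24), *Gadd45g* (0.82), *Rbl1* (0.63) and *Chek1* (0.55), against *Gadd45a* (-0.82), *Gadd45b* (-0.46), *Fbxw7* (-0.33) and *Btg2* (-0.32). Granulosa cell markers rose in 6 of 11 (median 0.46) and the smooth muscle markers *Cnn1* and *Tagln* did, of 3, and meiotic prophase markers fell in 4 of 11, their group means going from 2.38 to 1.98. The theca markers *Cyp11a1* (2.36) and *Cyp17a1* (1.02) also rose, 2 of 5. Of 14 oocyte markers *Oosp1* (1.56) and *Bmp15* (1.23) rose, and *Kit* (-0.75), *Sohlh2* (-0.40) and *Lhx8* (-0.20) fell. Of 6 testis supporting cell markers *Dhh* (1.92) and *Amh* (0.45) rose and *Fgf9* (-0.20) fell. No endothelial or blood cell marker was called. The part of cell composition in the changes with age was not tested.

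**Figure D3:**
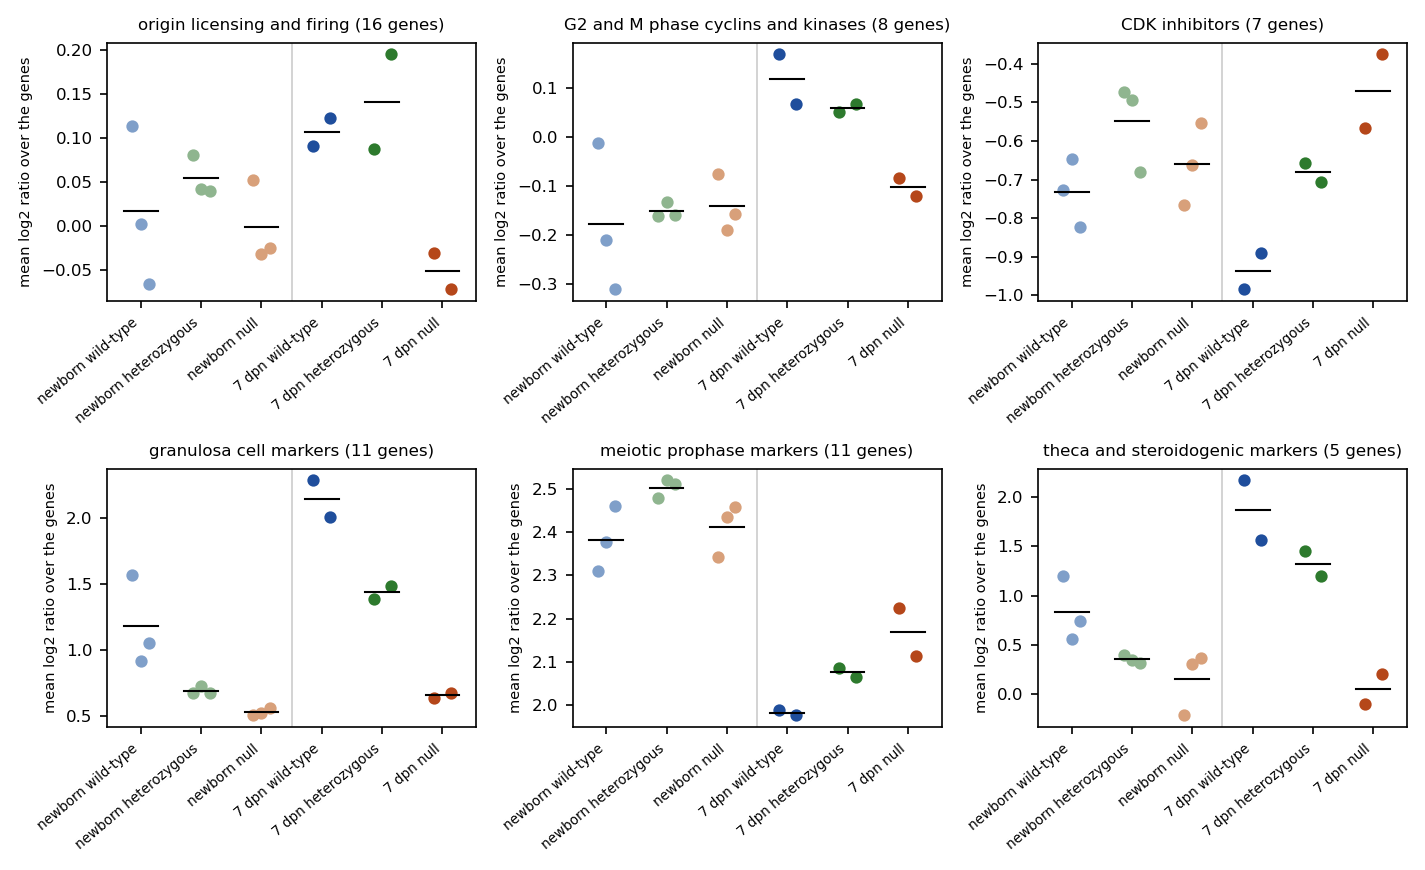
Mean log2 ratio of ovary over reference (y axis) per array for 6 gene groups, by genotype and age (x axis); each point is 1 array averaged over the genes of the group. Granulosa and theca markers are highest in 7 dpn wild-type arrays and within the range of the newborn arrays in 7 dpn null arrays, and the genes of G2 and mitosis span a narrower range, from -0.31 to 0.17.

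In heterozygous ovaries 17 members changed with age, 12 higher and 5 lower, 13.9% against a background of 12% (6.95% higher, 5.07% lower). *Cdc6* (0.83), *Cdc45* (0.52), *Cenpo* (0.52), *Cdkn2c* (0.62), *Cenps* (0.39), *Kif22* (0.42, but -0.034 with the mean of its probes) and *E2f1* (0.24) were the core members that rose, and *Cdkn1c*, which encodes the inhibitor p57, and *Orc2* fell by 0.79 and 0.39. *Cdkn1c* read from 3.77 to 3.84 in newborn and 3.02 and 3.04 in 7 dpn heterozygous arrays. None of the 8 genes of G2 and mitosis was called, with *Ccnb1* at 0.83 (limma adjusted p = 0.0629) and *Ccna2* at 0.42, but both were called without newborn wild-type replicate 1. The series values split the calls as 7 higher and 9 lower, against 5.46% and 6.04% of all named genes. In null ovaries 10 members changed, 5 higher and 5 lower, 8.2% against a background of 5.74% (3.85% higher, 1.89% lower). *Ccnd1* (0.66) was the core member that rose, beside *Cdc42ep3* (0.81), *Cdk2ap2* (0.70), *Cdk5rap3* and *Cdc123*. *Cdkn1c* (-0.76), *E2f5* (-0.43), *Cdc7*, the origin-firing kinase (-0.38), and *Mcm3* (-0.28) fell, with *Kif2a* (-0.49).

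Of the 33 other replication genes 6 rose (18.2%) and 4 fell (12.1%) with age in heterozygous ovaries, *Dnmt1* (1.27) among the first, and of the 45 mitosis genes 6 rose (13.3%) and 2 fell (4.44%). Of the 21 control genes 2 rose (9.52%) and 3 fell (14.3%), where the backgrounds were 6.95% and 5.07%. In null ovaries 4 replication genes, the mitosis genes *Prc1* (-0.53) and *Cks2* (-0.41) and the control gene *Fbxw7* (-0.33) fell, and none of these lists held a gene that rose. The shares that fell were 12.1%, 4.44% and 4.76%, against a background of 1.89%.

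Markers moved with age in these genotypes too. In heterozygous ovaries 5 of 11 granulosa cell markers rose, among them *Hsd17b1* (2.31) and *Inha* (1.83), as did the theca markers *Hsd3b1* (1.37) and *Star* (0.85), the 3 smooth muscle markers *Cnn1*, *Tagln* and *Des*, the oocyte markers *Bmp15* (2.03) and *Oosp1* (1.90), and *Dhh* (1.72). *Sohlh2* (-0.28) and 4 of 11 meiotic markers fell, *Hormad1* (-1.67) furthest. In null ovaries no granulosa, theca or oocyte marker was called, while *Sox9* (0.95), *Cnn1* (0.94) and *Tagln* (0.83) rose and *Hormad1* (-1.05) and *Stra8* (-0.57) fell. The part of cell composition in these changes was not tested.

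**Figure D4:**
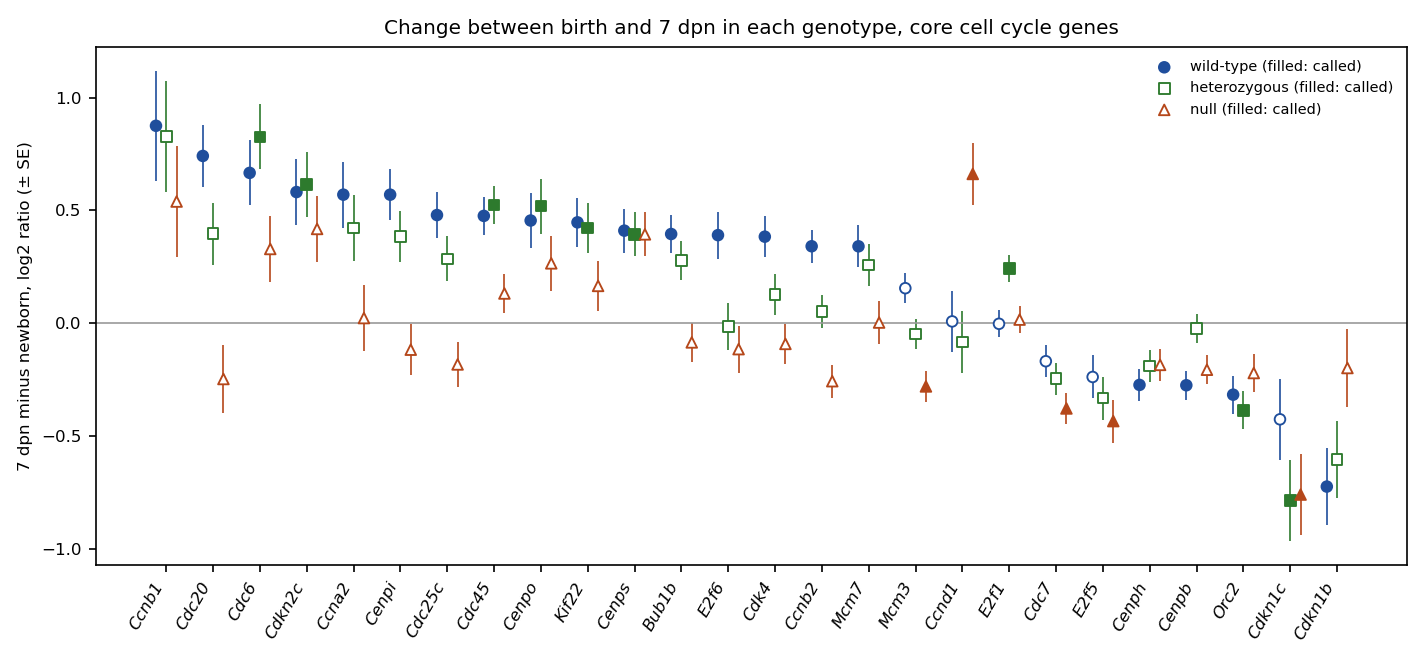
Difference of mean log2 ratios, 7 dpn minus newborn (y axis), with its standard error, for the 26 core members called in at least 1 genotype (x axis). Circles are wild-type, squares heterozygous and triangles null ovaries, filled where called. *Cdc6*, *Cdc45*, *Cdc20* and *Cenpi* lie higher in wild-type than in null ovaries, and *Ccnd1* lies higher in null than in wild-type ovaries.

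Set side by side, 5 genes picked from those whose means were lower in null than in wild-type ovaries at 7 dpn had these changes with age. The 7 dpn arrays are shared between these comparisons. *Cdc20* changed by 0.74 in wild-type, 0.40 in heterozygous and -0.25 in null ovaries (2 newborn null arrays), *Ccnb2* by 0.34, 0.05 and -0.26, and *Cenpi* by 0.57, 0.38 and -0.12. *Cdc6* changed by 0.67, 0.83 and 0.33, and *Cdc45* by 0.48, 0.52 and 0.13. In wild-type ovaries all 5 passed, in heterozygous ovaries *Cdc6* and *Cdc45* did, and in null ovaries none did. These calls turned on newborn wild-type replicate 1: without it *Cdc20* and *Cenpi* passed in heterozygous ovaries as well, and *Ccnb2*, lower at 7 dpn, in null ovaries. Between null and wild-type at 7 dpn *Cdc20* and *Ccnb2* had not passed, and without that array *Ccnb2* did (-0.30, limma adjusted p = 0.00902). Of the other core members called lower in that comparison, *Bub1b* (0.40), *Cdc25c* (0.48) and *E2f6* (0.39) passed with age in wild-type ovaries. *Mcm3* did not pass with age in wild-type ovaries with all arrays, and in null ovaries it fell (-0.28).

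Whether the null effect differed between the ages was tested directly, and no member was called in limma (background 0.31%). At an unadjusted p under 0.05 there were 26 of 122, against 14% of all named genes. Of the replication, mitosis and control genes outside the name rule, *Rrm2* was called (-0.64, limma adjusted p = 0.0461). Among the members the smallest p belonged to *Ccnb2*, whose null effect was 0.30 in newborns and -0.30 at 7 dpn, a difference of -0.60 (limma adjusted p = 0.0537). *Cdc20* followed with -0.99 (limma adjusted p = 0.108) and *Cdc25c* with -0.66 (limma adjusted p = 0.109). Without newborn wild-type replicate 1, 11 members were called, all with a lower null effect at 7 dpn, against 4.46% of all named genes (1.49% higher, 2.96% lower). They were *Ccnb2* (-0.68, limma adjusted p = 0.0025), *Cdc20* (-1.13), *Ccna2*, *Cdc25c*, *Cenpa*, *Cenpi*, *Cenpk*, *Bub1b*, *Mcm3*, *E2f6* and *Cdk18*. The heterozygous effect did not give a call in limma between the ages (background 0%), and 10 of 122 members had an unadjusted p under 0.05, against 8.06% of all named genes. It gave 2 without newborn wild-type replicate 1 (background 1.59%).

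The age counts also moved with single arrays. Without newborn wild-type replicate 1, 42 members in place of 34 were called in wild-type, 25 in place of 17 in heterozygous and 13 in place of 10 in null ovaries, against backgrounds of 22.7%, 14.8% and 7.87%. In wild-type ovaries 34 became 10 without newborn replicate 2, 12 without newborn replicate 3, and 11 and 7 without 7 dpn replicates 1 and 2, where from 5.77 to 7.08% of all named genes were called. In heterozygous ovaries 17 became 11, 9 and 8 without newborn replicates 1, 2 and 3, and 8 and 5 without 7 dpn replicates 1 and 2 (backgrounds from 5.01 to 8.29%), and it was 5 with the ovary channel alone (background 3.36%). In null ovaries 10 became 3 without newborn replicate 2 or 3, 6 without newborn heterozygous replicate 3, and 1 and 0 without 7 dpn replicates 1 and 2 (backgrounds from 0.319 to 4.22%). It was 2 with only the arrays of these 2 groups (background 1.69%) and 0 with the ovary channel alone (background 0.653%).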

How the data were processed

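Ovary RNA was labelled with Cy3 and the universal mouse reference with Cy5 on each of 15 two-colour Agilent mouse developmental arrays. The labels gave each array its genotype, age and replicate number. For the 7 dpn samples the age field says birth, while titles and stage say 1 week, which was used. The methods name fewer 7 dpn samples than carry labels and say that these were not amplified, while the labels' protocol names an amplification kit.

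The authors deposited scanner output (Feature Extraction A.7.5.1) with processed intensities per spot and channel, background-subtracted and dye-balanced by that software. They also deposited series values of unstated scale, 1 signal per probe and array, which followed the processed ovary intensity and were used, as log2, only as an alternative. Control spots (2396 per array) and 7 to 100 outlier spots per array were left out, and 41006 probes remained. Of these, 20657 carry a RefSeq accession and 15294 were given a current symbol. In the ovary channel, 93.2 to 96.5% of the probes of an array stood well above background and 22 to 87 spots were saturated.

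Log2 ratios of ovary over reference were normalized by loess (span 0.01) against the mean array, as in the methods but with a local linear fit. In R 4.3.3, limma 3.58.1 fitted 1 mean per group (6 groups, 15 arrays) with empirical Bayes moderation, and p was adjusted by Benjamini-Hochberg over 40990 probes. The number of arrays limits the precision. On simulated data for 7 dpn null against wild-type (40558 probes, 200 changed), 36.5% of changes of 0.5, 80.5% of changes of 1 and 89% of changes of 1.5 on the log2 scale were recovered, with 2, 15 and 7 false calls. The simulated noise was independent between probes and arrays, with no array that stood apart as newborn wild-type replicate 1 did. Recovery with such an array was not tested. The reference channel on its own gave no called member in any of the 11 comparisons. Same-numbered newborn arrays deviated together with r from -0.17 to 0.15, and differently numbered ones with r from -0.18 to 0.21. At 7 dpn r was from -0.14 to -0.01, but the 2 arrays of a group deviate as mirror images. That r therefore cannot show whether numbers pair samples, and no pairing was used in the main fit.

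Members, roles and gene lists were chosen with earlier results of these data known. Named members are the up to 12 largest called changes in each direction per comparison among those well above background on every array of 1 of the groups, and a set of standard cycle genes whatever their values. Of that set, *Ccnd2*, *Ccne2*, *Aurka*, *Aurkb*, *Cenpf*, *Kif11*, *Kif23*, *E2f3* and *E2f8* were not analysed here. *Kif17*, *Cdkn2a* and *Cdkn2b* and the dimmer probes were named after their values were seen. Other gene lists and cell type markers are given by counts or by called genes in the comparisons that called any. A 15th oocyte marker, *Zp2*, gave no fitted value and is in neither the counts nor the means.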

Additional observations from a re-analysis of the deposited data

How the results depend on the processing

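The members called between null and wild-type newborns (2) became 6 with normexp background correction and 0 with a span of 0.3, with the ovary channel alone, with only the arrays of that age, or at an adjusted p under 0.01. The backgrounds with the ovary channel alone and with only the arrays of that age were 0.817% and 1.46%. Where neither this section nor the text above gives a background, a moved count cannot be told from a shift over all named genes. Between newborn null and heterozygous the series values gave 1 in place of 0. Between null and wild-type at 7 dpn, 15 became 3 with the ovary channel alone, 23 with the series values, 5 with only the arrays of that age and 3 under 0.01. Between null and heterozygous at 7 dpn, 6 became 0 with the ovary channel alone or only the arrays of that age, 3 with a local mean (chosen after seeing the data) and 1 under 0.01. For age in wild-type ovaries 34 became 4 with the ovary channel alone, 0 with only the arrays compared and 5 under 0.01, in heterozygous ovaries 17 became 5 and 6 (ovary channel, under 0.01), and in null ovaries 10 became 0, 2 and 1. The difference of the null effect between ages gave 1 in place of 0 with normexp, the series values or a filter on dim probes. The cause was not tested.

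Whether the numbers pair the samples is not settled, so the main fit used no pairing. With the replicate number as a block, 3 members in place of 6 were called between null and heterozygous at 7 dpn, and 18, 11 and 6 with age in wild-type, heterozygous and null ovaries. The block left 2 in newborn null against wild-type, gave 17 in 7 dpn null against wild-type and 0 elsewhere, and a crossed pairing at 7 dpn (chosen after seeing the data) gave 0 between heterozygous and wild-type. No background under the block is given, so these counts cannot be told from a shift over all named genes.

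Leaving out 1 array gave from 0 to 11 members for newborn null against wild-type, 0 to 5 for heterozygous against wild-type and 0 to 1 for null against heterozygous. At 7 dpn these ranges were 3 to 21, 0 to 1 and 0 to 11. With age they were 7 to 42, 5 to 25 and 0 to 13 in wild-type, heterozygous and null ovaries, and 0 to 11 and 0 to 2 for the null and heterozygous effects between ages. A lone array left in a group was assumed to vary like the others.

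*Kif17* with age in wild-type ovaries turned to -0.10 in the series values, and *Kif22* turned to -0.037 in wild-type and -0.034 in heterozygous ovaries with the mean of its probes. Of 84 called member differences, 83 kept their call and direction with normexp, 84 with the dim filter, 78 with a span of 0.3, 71 with probe means, 66 with a local mean, 64 with median centring, 52 with the series values or the block, 16 with only the arrays compared or under 0.01, and 8 with the ovary channel alone. Leaving out 1 array kept 849 of 1260. Of members not called between null and wild-type at 7 dpn, 52 of 107 changed sign in at least 1 alternative. A scan date or slide block was not run: no scan date was used here, each array had its own slide, and the day of reading by the scanner software held a single age.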
